A study of Mus musculus with 18 samples.

Results

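Detectable olfactory receptor genes are the rows of the deposited mRNA table whose symbol is Olfr followed by digits alone and whose baseMean was 1 or more. The baseMean is the authors' mean of the normalised read count over all libraries. The table held 1104 olfactory receptor rows under 1103 symbols among 21859 genes, and 163 of the 1104 met the rule, so the members were chosen by the level itself. The other 941 receptor rows lay under the threshold, 317 of them at 0.

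Nascent RNA was measured by transient transcriptome sequencing (TT-seq), in which RNA made during a pulse of 4-thiouridine, here 5 min, is purified and sequenced. The cells were E14 murine embryonic stem (ES) cells, kept in LIF with a GSK and a MEK inhibitor, in which the FACT histone chaperone subunit SPT16 can be degraded by auxin. The 18 libraries came from 6 groups of 3, namely Untagged_EtOH, Untagged_3-IAA, SPT16_AID_V5_Clone1_EtOH, SPT16_AID_V5_Clone1_3-IAA, SPT16_AID_V5_Clone2_EtOH and SPT16_AID_V5_Clone2_3-IAA, each treated for 24 h with 0.1% ethanol or with the auxin 3-IAA. The labels give 500 nM for 3-IAA, while the methods of the study give the same figure in micromolar. Every group, the untagged controls included, carried the osTIR1 ubiquitin ligase adaptor. The tagged cells were 2 clones with the degron and V5 tags at the end of the endogenous Supt16 gene. The files used here hold 1 baseMean per gene over all 18 libraries, so no value per library, no spread and no test between groups is given, and depleted and control cells cannot be told apart in any level below.

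Olfactory receptors are G protein-coupled receptors of the nasal epithelium that bind odorants. Their genes stand in tandem clusters on most chromosomes, and a mature olfactory sensory neuron transcribes a single receptor gene from a single allele while the rest of the family is kept in silent chromatin. Signalling runs through the G protein subunit encoded by Gnal, the adenylyl cyclase encoded by Adcy3 and a cyclic nucleotide-gated channel with the subunit Cnga2. ES cells are not a tissue in which the receptors are known to act.

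The 250 bases before the annotated start of 5 of the 10 members with the highest baseMean, and of Olfr815 beside Olfr814, are shown so that neighbouring genes can be set beside each other. Starts are those of Gencode vM21, and the sequence is that of the RefSeq copy of GRCm38. Each runs 5′ to 3′ on the strand of the gene and ends at the base before the start. Capitals mark a TATA box (TATAAA) on either strand.
Olfr837: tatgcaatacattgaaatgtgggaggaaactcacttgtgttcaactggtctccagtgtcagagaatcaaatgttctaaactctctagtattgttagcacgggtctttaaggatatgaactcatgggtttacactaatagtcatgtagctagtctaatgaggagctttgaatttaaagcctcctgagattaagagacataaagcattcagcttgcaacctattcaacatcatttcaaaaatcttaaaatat
Olfr539: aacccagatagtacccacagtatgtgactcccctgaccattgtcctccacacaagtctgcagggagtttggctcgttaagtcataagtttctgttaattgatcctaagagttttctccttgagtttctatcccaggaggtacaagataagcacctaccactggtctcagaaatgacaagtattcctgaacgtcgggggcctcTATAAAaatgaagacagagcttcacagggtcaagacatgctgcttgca
Olfr45: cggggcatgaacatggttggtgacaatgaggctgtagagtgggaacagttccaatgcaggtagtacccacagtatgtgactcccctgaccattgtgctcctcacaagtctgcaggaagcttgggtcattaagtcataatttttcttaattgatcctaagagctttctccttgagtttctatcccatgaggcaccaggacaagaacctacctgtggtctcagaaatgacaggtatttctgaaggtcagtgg
Olfr814: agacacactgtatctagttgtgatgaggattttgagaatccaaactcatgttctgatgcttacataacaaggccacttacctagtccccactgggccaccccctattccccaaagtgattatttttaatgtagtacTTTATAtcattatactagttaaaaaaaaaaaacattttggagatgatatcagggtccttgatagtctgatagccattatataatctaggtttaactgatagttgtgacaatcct
Olfr815: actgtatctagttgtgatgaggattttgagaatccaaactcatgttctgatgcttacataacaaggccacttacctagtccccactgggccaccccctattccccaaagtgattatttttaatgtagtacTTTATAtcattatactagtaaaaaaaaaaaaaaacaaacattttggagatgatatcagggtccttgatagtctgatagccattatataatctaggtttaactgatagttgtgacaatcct
Olfr985: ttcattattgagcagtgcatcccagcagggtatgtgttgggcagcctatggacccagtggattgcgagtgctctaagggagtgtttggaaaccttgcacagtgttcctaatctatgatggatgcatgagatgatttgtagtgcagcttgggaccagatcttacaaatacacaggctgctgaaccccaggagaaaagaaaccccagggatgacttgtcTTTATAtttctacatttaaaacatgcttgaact
The windows lie at chr9:19136067-19136316 (+), chr7:140659680-140659929 (+), chr7:140681701-140681950 (+), chr10:129879852-129880101 (-), chr10:129905868-129906117 (-) and chr9:40130185-40130434 (-). In Olfr539 the TATA box lies on the strand of the gene, and its first letter in capitals stands at -48 from the start. In Olfr985, Olfr814 and Olfr815 the capitals read TTTATA, a match on the opposite strand. Their first letters stand at -33, -114 and -120. The windows of Olfr45 and Olfr837 hold none.

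As a family the receptor genes stood low in the gene table. Of the receptor rows 14.8% were detectable, against 84.4% of the 20755 other rows, and 28.7% of receptor rows were at 0 against 6.67% of the others. The median baseMean was 0.0950 over all receptor rows, 3.03 over the 163 members (quartiles 1.77 and 9.93) and 786 over the 17514 other detectable genes. In a bulk library fewer cells that transcribe a gene and less RNA per cell cannot be told apart. The receptor rows summed to a baseMean of 3440, and the members held 95.7% of that sum.

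**Figure D1:**
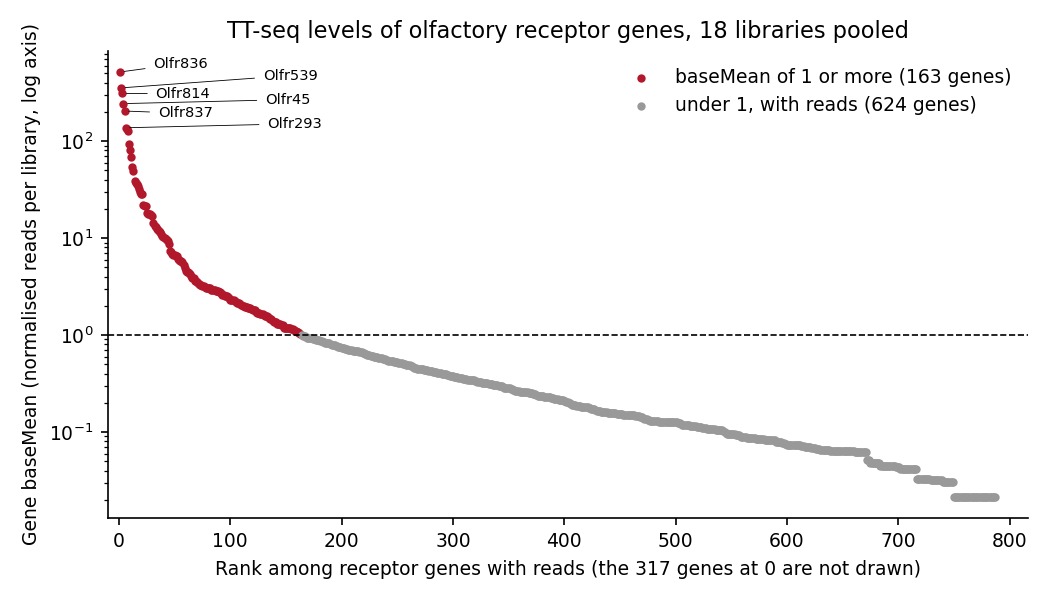
Each point is 1 olfactory receptor gene with reads, ordered by baseMean (x axis, rank) and drawn at its baseMean, the authors' mean normalised read count over 18 libraries (y axis, log scale). Red points are the 163 genes at 1 or more, grey points the 624 under 1, and the dashed line is the threshold. The curve is steep over the first genes, from 516 for Olfr836, and passes through the threshold with no step.

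Most members stood near the threshold. There were 53 members with a baseMean from 1 to 2, 52 from 2 to 5, 17 from 5 to 10, 33 from 10 to 100 and 8 at 100 or more. The members just inside were Olfr214 at 1.03, Olfr905 at 1.05 and Olfr1391 at 1.07, and the receptor genes just outside were Olfr1256 at 0.992, Olfr346 at 0.989 and Olfr92 at 0.975. A baseMean of 1 stood for few reads. A gene with 1 read in 1 library had a baseMean of 0.0216 to 0.115, by library, so that a baseMean of 1 came from 9 to 46 reads over all libraries, or 19.9 had the gene stood at 1 level in all of them. Among the 624 receptor genes with reads under the threshold, 177 had 1 read in 1 library. Which libraries held the reads of a member is not known here.

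A few genes held most of the reads. By baseMean the first were Olfr836 at 516, Olfr539 at 354, Olfr814 at 310, Olfr45 at 244 and Olfr837 at 204, which together held 49.4% of the members' sum. Olfr293 at 137, Olfr153 at 133, Olfr984 at 126, Olfr985 at 94.2 and Olfr1564 at 80.4 brought that share to 66.8%. The level of Olfr836 stood at percentile 55.7 of the whole gene table.

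Since a longer gene collects more reads, levels were also set against the length of the merged exons. On that scale, baseMean per kb of exon, Olfr153 was first at 106 with its 1258 bases of exon, followed by Olfr836 at 102 and Olfr814 at 81.2. Olfr837 stood at 53.6, Olfr985 at 50.1, Olfr293 at 48.1, Olfr45 at 39.6 and Olfr539 at 30.8. Olfr539, the second gene by baseMean, fell to the 8th place on this scale, since its exons cover 11486 bases. The median over the members was 1.01 per kb, against 213 per kb over the other detectable genes. Olfr153 was at percentile 41.5 of all detectable genes per kb.

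The members were the longer genes of the family. The median exon length was 3383 bases over members, 2899 over receptor genes under the threshold and 2539 over those at 0, and the span from start to end had medians of 7287, 5815 and 5033 bases in the same order. Genes annotated as a single exon block made up 3.07% of members (5 genes, Olfr153 among them), 11.5% of the genes under the threshold and 20.8% of those at 0. The baseMean is not set against length, so the rule takes up a longer gene more readily, and the part of length in these shares was not tested. Other genes with a baseMean from 1 to 10 had a median exon length of 2357 bases and a median of 1.44 per kb. In matched ranges of baseMean the members were lower per kb of exon. From 1 to 2 the medians were 0.452 for members and 0.692 for other genes. They were 0.960 and 1.35 from 2 to 5, and 1.63 and 2.84 from 5 to 10. In each of these ranges the members had the longer exons but the shorter spans. From 1 to 2 the median exon length was 3270 bases for members and 2072 for other genes, and the median span 6994 and 10462. Which part of a gene was counted is not given, so this order holds for exon length only.

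The same threshold was applied to 8 other clustered gene families. The vomeronasal receptors of the Vmn1r family, which like the odorant receptors act in sensory neurons of the nose, were detectable in 14.3% of 230 genes. In the other vomeronasal family, Vmn2r, 58.8% of 119 genes were detectable, and their median exon length was 6860 bases against 2976 over the Olfr genes. Bitter taste receptors (Tas2r) were detectable in 3 of 35 genes, trace amine receptors (Taar) in 3 of 15, Mas-related receptors (Mrgpr) in 8 of 20, beta-defensins (Defb) in 10 of 42 and keratin-associated proteins (Krtap) in 2 of 57. Of the clustered protocadherins (Pcdh) 56 of 57 were at 0. Protocadherin transcripts of a cluster share exons, and how the counting treated reads in shared exons is not given in the sources used here. The Olfr share therefore lay close to that of Vmn1r and inside the range of the other families.

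**Figure D2:**
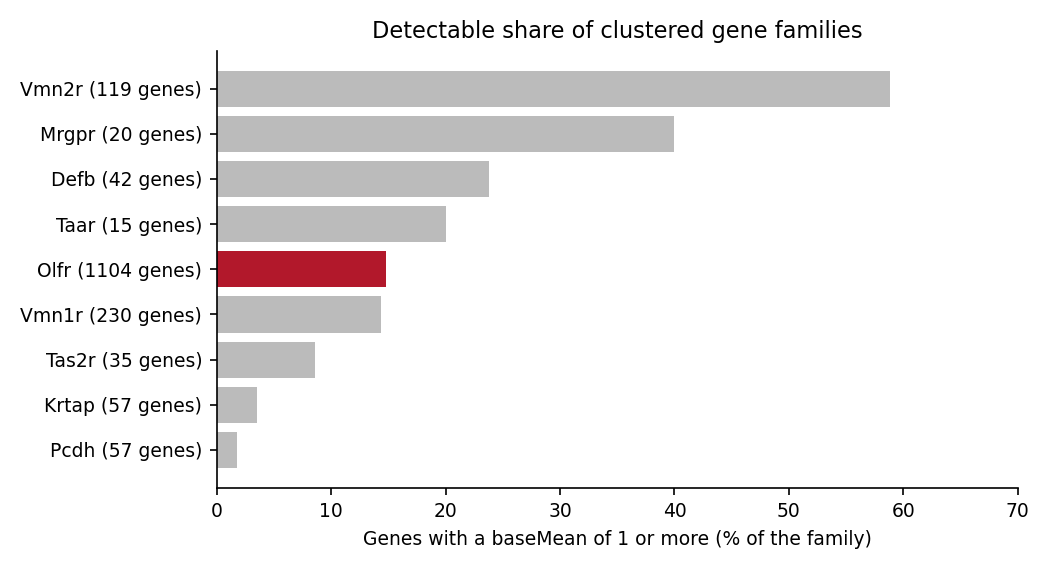
Bars give the percentage of the genes of each clustered family with a baseMean of 1 or more (x axis), with the number of genes of the family in parentheses. The olfactory receptors (red, 14.8%) stand next to the Vmn1r genes (14.3%) and below the Vmn2r genes (58.8%).

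Many detectable receptor genes lay beside each other. The receptor gene with the nearest start was itself detectable for 58 of 163 members (35.6%) and for 100 of 941 receptor genes under the threshold (10.6%). With a neighbour on either side counted, the figures were 87 members (53.4%) and 196 of the others (20.8%). Neighbours share a cluster and often a similar sequence, so the genes are not independent, and no test was made. In the order of receptor genes along each chromosome, 82 members stood in 32 runs of 2 or more neighbours and 81 stood alone. The longest runs held 4 genes, and there were 4 of them. They were Olfr983 to Olfr986 on chromosome 9, Olfr536, Olfr538, Olfr46 and Olfr61 on chromosome 7, Olfr1393, Olfr1392, Olfr10 and Olfr1391 on chromosome 11, and Olfr1419, Olfr1420, Olfr1423 and Olfr1424 on chromosome 19.

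Of 49 clusters, built by joining receptor genes less than 1 Mb apart, 37 held a member, as did 21 of the 22 clusters of 10 or more genes. The exception was the cluster of 12 genes on chromosome 13, where no gene was above 0.277. Most of the receptor reads came from 3 clusters. The cluster on chromosome 9 from 18751507 to 20336094 held 10 members of 36 genes and 22.7% of the summed baseMean of all receptor rows, most of it from Olfr836 and Olfr837. The cluster on chromosome 7 from 140159999 to 140705606 held 7 members of 19 genes and 19.2%. The second cluster on chromosome 9, from 37708964 to 40190134, held 21 members of 93 genes and 13.0%. The largest cluster, 224 genes on chromosome 2 from 85330779 to 90403897, had 19 members (8.48%) and 6.78% of the sum. The chromosome 7 cluster from 102476579 to 105369355 had 13 of 124 genes detectable. By chromosome, 31 of 129 genes were detectable on chromosome 9 (24.0%), 9 of 24 on chromosome 4 (37.5%), 31 of 236 on chromosome 7 (13.1%), 28 of 287 on chromosome 2 (9.76%) and none of 6 on the X chromosome. Only Olfr19 at 2.84 and Olfr267 at 3.07 were members with no other receptor gene within 1 Mb.

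Olfr836 and Olfr837 form a tandem pair. Olfr836 lies on chromosome 9 from 19120382 to 19125938 and Olfr837 from 19136317 to 19140641 (GRCm38, plus strand), with starts 15935 bp apart. Each was the closest relative of the other, with 91.0% identity over the coding sequence.

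The chromosome 7 genes Olfr539, Olfr45 and Olfr541 followed each other on the plus strand, from 140659930 to 140678580, from 140681951 to 140696845 and from 140697267 to 140705606. The gaps between them were 3371 and 422 bp. Their baseMean fell along this order, 354, 244 and 28.7, and per kb of exon they stood at 30.8, 39.6 and 17.4. Their coding sequences were 90.6% (Olfr539 and Olfr45), 91.5% (Olfr45 and Olfr541) and 89.9% (Olfr539 and Olfr541) identical. The windows before the starts of Olfr539 and Olfr541 shared an unbroken run of 58 bases, which began 242 bases before the start of Olfr539 and 116 bases before that of Olfr541. The first part of the same run is in the window of Olfr45, where 35 bases matched from 190 bases before the start.
Shared by Olfr539 and Olfr541: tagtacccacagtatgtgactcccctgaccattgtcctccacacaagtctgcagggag
Shared by Olfr539 and Olfr45: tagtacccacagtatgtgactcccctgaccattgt
The closest relative of Olfr45 by coding sequence was another gene of the cluster, Olfr53, with 91.8% identity and a baseMean of 0.693. A near copy in the same cluster thus stood under the threshold.

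The run of Olfr983, Olfr984, Olfr985 and Olfr986 on chromosome 9 covered 103 kb. Olfr985 at 94.2, Olfr984 at 126 and Olfr983 at 37.0 lie on the minus strand in the order in which they would be read, while Olfr986 at 2.45 lies on the plus strand. Unlike the tandem genes above, Olfr984 and Olfr985 were 54.9% identical over the coding sequence, and the best 50-base stretch of their start windows matched at 62%. Olfr814 on chromosome 10, from 129871473 to 129879851, stood at 310 between Olfr813 at 3.05 and Olfr815 at 7.40, although the coding sequences of Olfr814 and Olfr815 were 95.9% identical. Their start windows, shown above, were 94.8% identical, with an unbroken match of 149 bases that held the TATA box of both. Olfr153 on chromosome 2, from 87531796 to 87533053, had Olfr1128 at 0.153 as its nearest neighbour, and its closest relative, Olfr1131, stood at 2.32 with 96.5% identity. Both Olfr814 and Olfr153 stood above these neighbours and relatives.

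**Figure D3:**
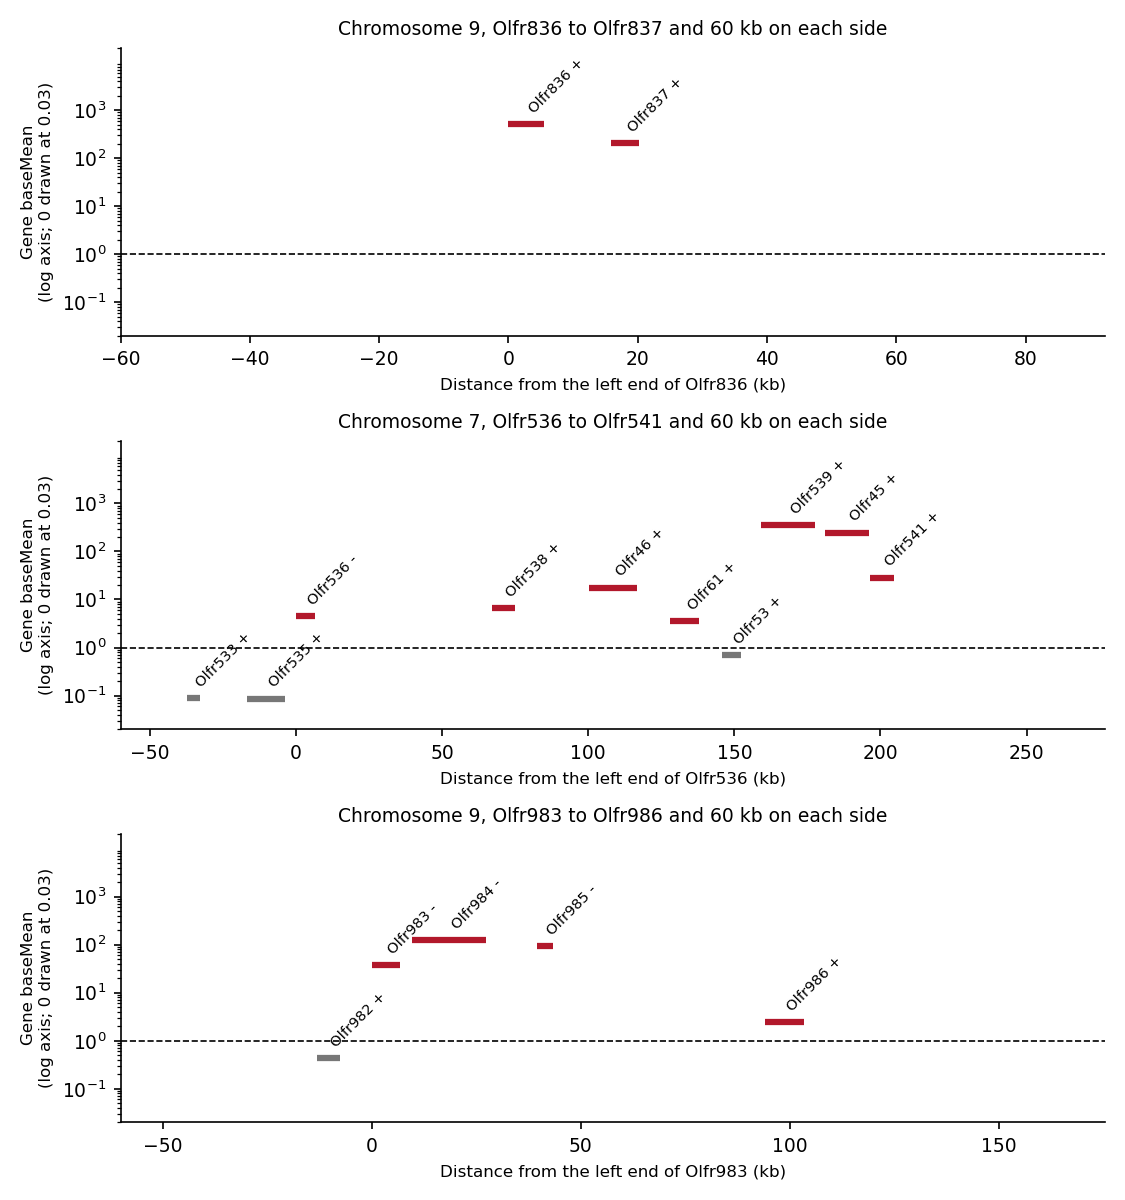
Each horizontal bar is a receptor gene, drawn over its span (x axis, kb from the left end of the first named gene) at its baseMean (y axis, log scale), with its strand beside the name. Red bars are at 1 or more and grey bars under 1. Olfr836 and Olfr837 stand at 516 and 204, Olfr539, Olfr45 and Olfr541 step down from 354 to 28.7, and Olfr53 at 0.693 lies between members.

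Each coding sequence was also set against those of all other receptor genes. The median identity to the closest receptor coding sequence was 88.6% over members and 87.7% over the genes under the threshold, and 20.9% and 21.0% of them had a relative at 95% or more. The closest relative was detectable for 43 members (26.4%) and for 129 of the genes under the threshold (13.7%), and it lay in the same cluster for 141 members. The authors kept reads that aligned to 1 place only, so reads from stretches that near copies share were left out, and the levels of genes with close relatives, such as Olfr814 and Olfr153, are uncertain.

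The distance to the nearest transcribed gene upstream was taken for each receptor gene. Of the members, 2 lay within 10 kb after the end of a coding gene that is no receptor, on the same strand, with a baseMean of at least 100. They were Olfr920 at 22.1, which lies 8962 bp after Vwa5a at 633, and Olfr18 at 17.7, which lies 9042 bp after the zinc finger gene Zfp560 at 563. Under the threshold, 1 of 941 receptor genes had such a neighbour. Within 50 kb there were 12 members (7.36%) and 14 of the 941 (1.49%), and the median distance to the nearest such gene was 506362 bp for members and 714421 bp for the others. With receptor genes counted as upstream genes, Olfr45, Olfr983 and Olfr541 joined the list, the last 422 bp after Olfr45. Counted so, no member from 1 to 10 had such a gene within 10 kb. For other genes the shares were 4.86% from 1 to 2, 4.61% from 2 to 5 and 7.38% from 5 to 10. From 10 to 100 it was 12.1% of 33 members against 15.4%. From 100 to 1000 it was 12.5% of 8 members against 22.8%. Within 10 kb upstream on the strand, 11 members (6.75%) and 62 receptor genes under the threshold (6.59%) had a non-receptor gene of any type. Of the 10 highest members Olfr45 alone had a coding gene at 100 or more within 10 kb upstream on its strand.

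In 2 of 163 members, and in 4 of 941 receptor genes under the threshold, the annotation itself overlapped other coding genes, not receptors, on the same strand. Olfr56 at 69.0 spans 156499 bases around Ifi47, an interferon-induced GTPase. Olfr643 at 21.4 spans 138606 bases and overlaps Ubqln5, 4930516K23Rik and 5 receptor genes. The coding sequence of Olfr643 has 138 bases, against a median of 939 over members. Whether the reads of Olfr56 and Olfr643 came from the receptor or from the other genes cannot be told apart here. Genes of every annotated type were then counted, noncoding ones included but receptor genes left out. On the same strand, 12 members (7.36%) and 29 receptor genes under the threshold (3.08%) overlapped such a gene. Another receptor gene was overlapped on the same strand by 1 member, Olfr643, and by 17 receptor genes under the threshold.

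Promoter upstream transcripts (PROMPTs) are short-lived RNAs made antisense to a gene from the region just before its start, and the authors counted them in windows of 1000 bases. A PROMPT row was at hand for 161 members. Of these, 91 had a PROMPT baseMean above 0, 18 (11.2%) were at 1 or more and 8 at 10 or more. Of 929 receptor genes under the threshold, 51 (5.49%) had a PROMPT at 1 or more. At a similar level of the gene, from 1 to 10, the share was 12.5% for 120 members and 17.2% for 1747 other genes. From 10 to 100 it was 6.06% (2 of 33 members) against 29.5%, and from 100 to 1000 it was 12.5% (1 of 8 members) against 51.7%. Over all other genes it was 45.1%. No test was made of these shares.

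The PROMPT was above the gene in 14 members. Olfr986 had a PROMPT baseMean of 199 and a gene baseMean of 2.45, and Olfr90 had 96.4 and 1.19. Olfr543 had 65.9 and 29.7, Olfr221 had 38.2 and 5.90, Olfr1495 had 36.7 and 9.35, and Olfr544 had 23.1 and 1.68. Olfr57 had 15.8 and 3.03, Olfr164 had 6.95 and 3.45, and Olfr365 had 5.46 and 1.18. Among the 10 highest members only Olfr539 had a PROMPT at 1 or more, at 11.9 beside its gene level of 354, and Olfr836 had 0.0327. None of the 18 windows overlapped an annotated gene on the antisense strand. Several, however, lay downstream of a highly transcribed gene on that strand. The windows of Olfr543 and Olfr544 began 11909 and 18543 bp after the end of Rrm1, which encodes a ribonucleotide reductase subunit and stood at 6188, and that of Olfr90 began 13433 bp after Gabbr1 at 8954. That of Olfr986 lay 112314 bp after Gramd1b at 11222. The part of these genes in the PROMPT values was not tested.

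**Figure D4:**
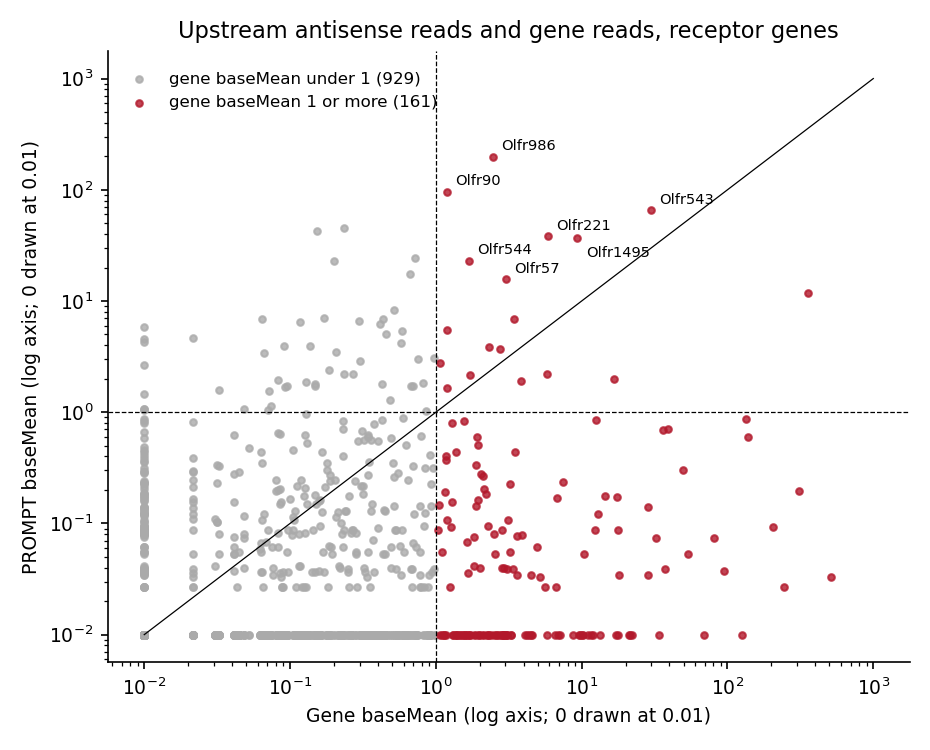
Each point is a receptor gene, at its gene baseMean (x axis) and its PROMPT baseMean (y axis), both on log scales with 0 drawn at 0.01. Dashed lines mark 1 and the solid line equal values. Of the 161 red points (gene at 1 or more), 18 lie at or above a PROMPT baseMean of 1, with Olfr986 highest at 199, and of the 41 genes at 10 or more, Olfr543, Olfr539 and Olfr24 do.

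The windows before the starts of the members had the base composition of the family. The ratio of observed to expected CpG had a median of 0.0756 over members, 0.0891 over receptor genes under the threshold, 0.229 over other genes with a baseMean from 1 to 10 and 0.742 over other genes at 1000 or more. The median GC content was 38.4%, 36.8%, 49.2% and 59.6% in that order. No CpG at all was found in 42.3% of member windows and in 44.2% of those under the threshold. Among the members, Olfr539 had 3 CpGs in its window and Olfr814 had none.

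A TATA box (TATAAA, either strand) was in the window of 27.6% of members, 282 of the 941 receptor genes under the threshold, 15.6% of other genes at 1 to 10 and 11.6% of all genes. It was in 16 of the 41 members with a baseMean of 10 or more (39.0%) in 29 of the 122 below (23.8%) and in 100 of the 317 receptor genes at 0 (31.5%), so the share did not follow the level. The homeodomain site TAATTA, the kind of site bound by Lhx2 and Emx2, was in 22.7% of members, 22.8% of genes under the threshold and 4.98% of all genes. The palindromic Ebf site (TCCC and GGGA with any 2 bases between them) was in 1.23%, 2.44% and 0.894%. Both the TATA box and the homeodomain site are rich in A and T, as are the receptor windows, and neighbouring matches of the 2 motifs can share the letters TA. A match in these windows is a match of letters only.

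**Figure D5:**
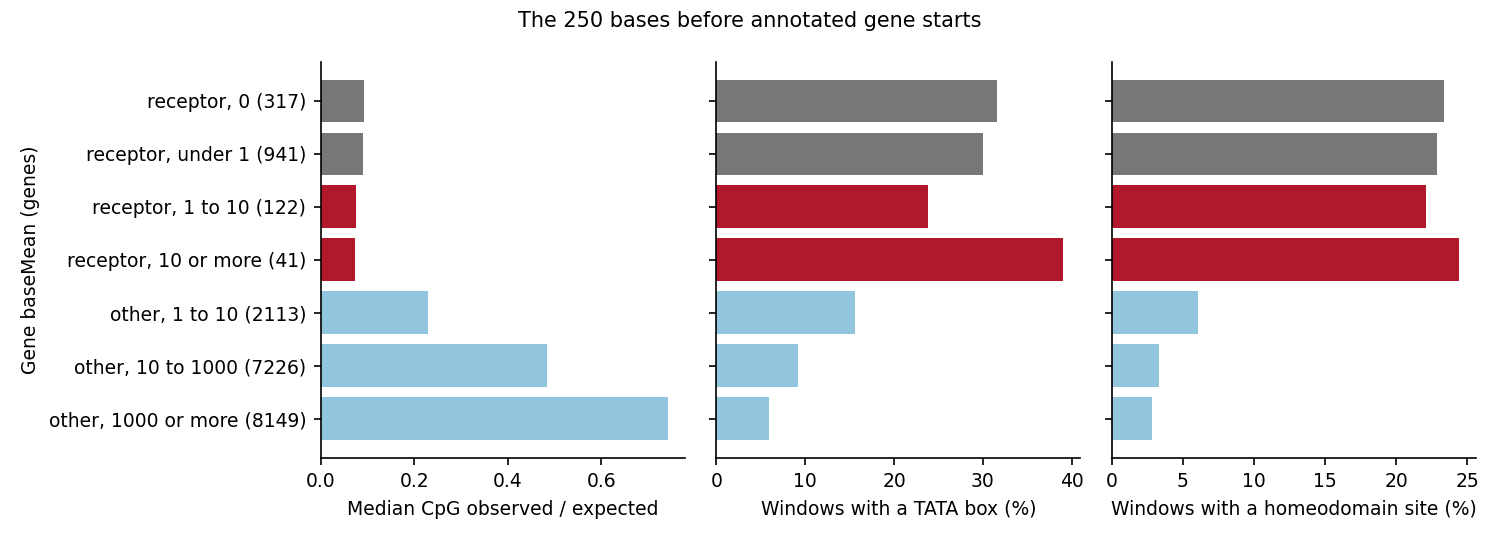
Bars give, for the 250 bases before annotated gene starts, the median ratio of observed to expected CpG (left), the percentage with a TATA box (middle) and the percentage with a homeodomain site (right), by gene group and baseMean, with the number of genes in parentheses. Receptor genes above (red) and below (grey) the threshold stand together in CpG, from 0.0735 to 0.0916, below all groups of other genes (blue).

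The labelled cell type was set against its markers in the pooled baseMean only. Control and depleted libraries are averaged in that value, so the state of the depleted cells was not tested. The paper reports that depletion of the tagged FACT subunit lowered transcription of pluripotency genes and brought signs of differentiation. All 9 ES cell markers had a baseMean of 5985 (Sox2) or more, up to 72140 for Tfcp2l1. Of 8 markers of olfactory sensory neurons, Omp, which encodes the olfactory marker protein, and Rtp1, a chaperone that brings receptors to the membrane, were at 0, and Cnga2 was at 0.992. Gng13 was at 5.40, Stoml3 at 20.4 and Ano2, the olfactory chloride channel, at 55.9. Gnal at 1383 and Adcy3 at 1601 were well transcribed, and both are also used outside the nose. Of all rows that are no olfactory receptors, 84.4% were at 1 or more. Near that share, 30 of 34 genes of olfactory signalling and of receptor choice were at 1 or more. Among those of receptor choice, Ldb1, the cofactor that joins receptor enhancers, was at 5625, Ebf1 at 15247, the histone demethylase gene Kdm1a at 15822, Lhx2 at 69.2 and Emx2 at 0.148. The heterochromatin genes Ehmt1, Ehmt2, Setdb1, Cbx5 and Lbr stood at 18353, 1925, 8992, 18613 and 7274.

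A list of 12 well-studied receptors with a row held 5 members, beside 14.8% of all receptor rows. The list was chosen with the values known, so no conclusion is drawn from the difference. Olfr1393 at 9.81, Olfr15 at 3.23, Olfr160 (M72) at 2.86, Olfr544 at 1.68 and Olfr1509 at 1.54 were members. Olfr17 (P2) at 0.701, Olfr1507 (MOR28) at 0.583, Olfr545 at 0.517, Olfr2 (I7) at 0.489, Olfr16 (MOR23) at 0.159, Olfr73 at 0.157 and Olfr78 at 0.105 lay under the threshold.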

How the data were processed

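TT-seq was done in 18 libraries from 6 groups of E14 cells. Per the study's methods, Trim Galore was used for trimming, STAR for alignment to mm10 (unique alignments), and featureCounts for counting by strand. The deposited description takes genes and PROMPT windows from Gencode vM25. Per the labels' processing notes, the authors used HTSeq, STAR, deepTools and DESeq2. Which part of a gene was counted, and the tools' versions, are not given in the sources used here. The baseMean deposited by the authors is a signal, the mean over all libraries of read counts divided by DESeq2 size factors. The 4 other value columns of each table hold the authors' own comparison of SPT16-depleted with control cells (shrunken log2 fold change, standard error, and raw and adjusted p-values) and were not used. A baseMean cannot be split by library or group, so nothing was tested and no error is given.

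Positions and exons came from Gencode vM21 on GRCm38, the build of mm10, and all 1104 receptor rows matched by identifier. Lengths are of merged exons, and coding sequences were aligned end to end, the longest per gene. Depth was read from the 18 baseMean values shared by genes with 1 read in 1 library (tested on simulated data). The tools were Python 3.11.15, pandas 2.3.3 and numpy 2.4.6.

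The members and lists were chosen with earlier results of these data known. Named were the 10 members with the highest baseMean, 3 on each side of the threshold, up to 10 by PROMPT and by upstream gene, the longest runs and the lone members, with their neighbours and closest relatives. Start windows of some members are not reported here. Other thresholds, distances, lengths and name rules were tried.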

Additional observations from a re-analysis of the deposited data

How the results depend on the processing

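The number of members was 257 (23.3% of receptor rows) at a baseMean of at least 0.5, 110 (9.96%) at 2 and 41 at 10. It was 166 (14.6%) with the pseudogene names Olfr839-ps1, Olfr718-ps1 and Olfr1369-ps1 counted, and 161 without Olfr56 and Olfr643, which overlap other coding genes. The threshold of 10 and the exclusion of overlapping genes were chosen after seeing the data. The median level per kb was 0.434 with the span from start to end as the length, and 1.70 over members at 2 or more. PROMPTs were seen at 91 members when any value above 0 counted, and at 8 with a threshold of 10. Upstream genes were found for 0 members within 5 kb, 12 within 50 kb, 0 with an upstream baseMean of at least 1000, 3 with at least 10, and 2 on either strand. At a threshold of 2 the nearest receptor gene was detectable for 37 of 110 members (33.6%) and for 63 of 994 others (6.34%).

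No paired analysis was possible because the baseMean pools all libraries and carries no replicate number. For the same reason no replicate was left out. The number of libraries with a read per member, with its alternatives, was not run, since the deposited digits do not fix the reads per library. Depth limits the members near the threshold, with 53 from 1 to 2 and 94 other receptor genes from 0.5 to 1.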
